A study of Mus musculus with 8 samples.

Results

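The endothelin, angiotensin and natriuretic peptide systems are the main peptide signals that set vessel tone and salt balance, and 10 of their genes were followed here in cultured mouse cardiac fibroblasts. The genes were taken by symbol from the 22274 genes of the count table, and all 10 were found, each as 1 row. They are Edn1, Ece1, Ednra and Ednrb of the endothelin system, Agt, Ace, Agtr1a and Agtr2 of the angiotensin system, and Nppb and Npr3 of the natriuretic system. Of the 10, 8 were tested, and OEIRF7 libraries had more of 2 and less of 2, where 29.0% of all tested genes were higher and 29.9% lower: Nppb (6.65-fold) and Ednrb (1.29-fold) were higher, and Npr3 (2.99-fold) and Edn1 (1.44-fold) were lower.

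Endothelin-1 is cut from its precursor by endothelin-converting enzyme and acts on the receptors ETA and ETB, which couple to Gq and G12 proteins; in the heart it is known as a product of endothelial cells and fibroblasts that favours contraction and scarring. Angiotensinogen is cut by renin and then by angiotensin-converting enzyme to angiotensin II, whose AT1 receptor drives the same kind of response, with AT2 often opposing it. Natriuretic peptides work the other way through receptors that make cyclic GMP, while Npr3 binds the peptides and clears them, and BNP, the product of Nppb, is best known as a cardiomyocyte gene that rises with wall stress.

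The study asked what overexpression of interferon regulatory factor 7 (IRF7), a transcription factor of the interferon response, does to gene expression in activated cardiac fibroblasts. The RNA of primary fibroblasts from mouse heart was sequenced in 8 libraries, 4 labelled GFP and 4 labelled OEIRF7. All 8 were treated with TGF-β, the growth factor that turns fibroblasts into myofibroblasts, so no library shows these genes without TGF-β. The GFP group is the control virus (an empty adenovirus, Ad-EV, in the study's text) and the OEIRF7 group received the IRF7 virus, described as an adeno-associated virus in the labels and as an adenovirus in the study's text, whose reagent list gives the adenovirus a CMV promoter, active in most cell types. The study's text puts all of its mouse strains on a C57BL/6 J background and gives no age for the mice of these cells. It speaks of biological replicates in a number other than the 4 libraries of a group, and neither source says that these 4 were separate cultures, so the p-values measure the spread between libraries, which may be technical.

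The libraries held 24888589 to 27095611 counts in the GFP group and 24454801 to 28658826 in the OEIRF7 group. Mouse Irf7 itself stood against the label: it had 2272 to 3680 counts in the GFP libraries and 380 to 421 in the OEIRF7 libraries, 118 ± 24.0 against 15.2 ± 0.822 CPM (counts scaled to the same library size; SD, n = 4). The virus in the study's reagent list is named for human IRF7, whose reads a count over mouse genes need not hold, so mouse Irf7 does not check the labels and every direction below rests on them. Acta2, the smooth muscle actin of myofibroblasts, was lower in OEIRF7 (2061 against 581 CPM, log2 fold change -1.83). Fibroblast markers were abundant, with a summed level over 9 genes of 13395 to 14114 CPM in GFP and 11796 to 12388 CPM in OEIRF7. The cardiomyocyte markers Myh6 and Myh7 had 1 and 4 counts over all libraries, whereas endothelial markers (230 to 243 and 233 to 261 CPM) and macrophage markers (271 to 321 and 346 to 385 CPM) were present.

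Edn1 and Nppb carried the ligand results, and their upstream sequences are shown because both hold the letters of a TEAD (M-CAT) element while the transcripts moved in opposite directions. The RefSeq sequences are the 250 bases before the annotated start on the plus strand of GRCm38.p6, at chr13:42301226-42301475 for Edn1 and chr4:147985650-147985899 for Nppb. Capitals mark every match to a searched motif in these bases.
Edn1: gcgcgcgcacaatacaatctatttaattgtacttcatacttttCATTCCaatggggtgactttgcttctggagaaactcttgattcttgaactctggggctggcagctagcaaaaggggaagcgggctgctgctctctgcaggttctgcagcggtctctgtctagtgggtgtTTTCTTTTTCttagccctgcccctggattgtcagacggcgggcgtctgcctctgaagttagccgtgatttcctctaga
Nppb: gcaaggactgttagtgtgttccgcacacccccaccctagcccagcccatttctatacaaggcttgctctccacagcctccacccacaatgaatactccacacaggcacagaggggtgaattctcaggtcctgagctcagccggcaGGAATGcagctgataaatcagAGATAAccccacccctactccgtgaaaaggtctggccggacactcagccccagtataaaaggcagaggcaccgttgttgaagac
The search covered the 250 bases before and 50 after each start on both strands, in 13 windows of 9 genes; Agtr1a had no window. The M-CAT letters CATTCC lay 207 bases before the start of Edn1 and, on the opposite strand, 105 bases before that of Nppb. That is 2 of the 13 windows, near the 14.7% of all 32851 windows. The GATA letters AGATAA lay 84 bases before the RefSeq start of Nppb and, on the opposite strand, 9 bases after that of Edn1, beyond the bases printed. These too are 2 of the 13 windows, against 11.2% of all windows. The interferon-type letters GAAANNGAAA occurred on the opposite strand 78 bases before the Edn1 start and, for Ece1, 72 bases before an alternative start. Again 2 of the 13 windows held them, against 3.44% of all windows, and no share was tested. The AP-1 letters TGANTCA (7.81% of windows) and the SMAD-type letters CAGACA (21%) were in no window of these genes. A match of letters is a description of the window and not a bound site, and GENCODE places the start of Nppb further upstream, so that both marked stretches of Nppb lie after that start, inside the gene as GENCODE draws it.

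Of the 10 genes, 8 passed the filter on low counts and were tested (edgeR quasi-likelihood test with Benjamini-Hochberg adjustment over 13533 genes, called at an adjusted p under 0.05). Of these, 2 were higher, against 29.0% of all tested genes, and 2 were lower, against 29.9%, shares near this background that set the 10 genes apart in neither direction. Calls with a log2 fold change over 1 in size numbered 2, Nppb and Npr3, against 8.56% of all tested genes. The CPM of the groups did not overlap for the 4 called genes, as for 53.8% of all tested genes. The median log2 fold change was -0.27 over the 8 genes and 0.00 over all tested genes. Fewer cells of a type and less RNA per cell cannot be told apart in these bulk libraries.

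**Figure D1:**
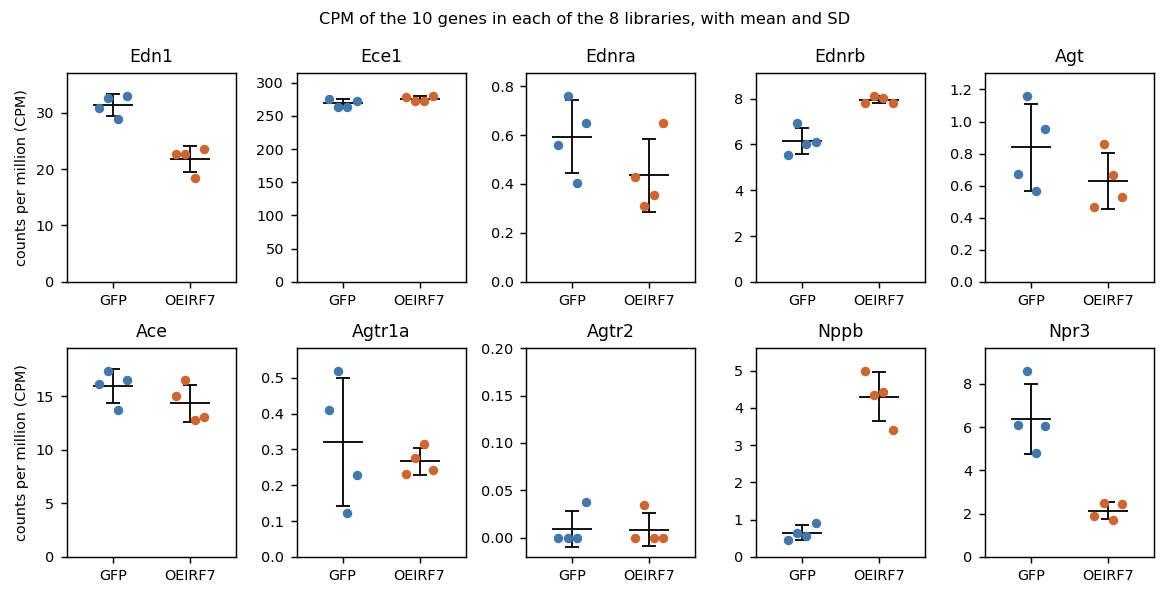
CPM (vertical axes, linear) of each of the 10 genes in the 4 GFP (blue) and 4 OEIRF7 (orange) libraries, with 1 point per library and bars for the mean and SD. Axes start from 0, except that of Agtr2, which starts just below 0. Nppb, Npr3, Edn1 and Ednrb are the genes whose groups do not overlap and that were called.

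Nppb, at chr4:147985788-147987205 on the plus strand in GENCODE M21 for GRCm38, encodes the precursor of B-type natriuretic peptide and had the largest difference of the 8 genes. It had 12, 16, 14 and 24 counts in GFP replicates 1 to 4 and 129, 126, 113 and 84 counts in OEIRF7 replicates 1 to 4. Every OEIRF7 library was above every GFP library, and even the lowest OEIRF7 library held 3.41 CPM against 0.915 CPM in the highest GFP library. The mean rose from 0.643 ± 0.198 to 4.30 ± 0.661 CPM (SD, n = 4), a log2 fold change of 2.73 (SE 0.22, 95% CI 2.27 to 3.20, adjusted p = 6.8e-08 in edgeR's quasi-likelihood test). A difference at least as large was seen in 0.687% of tested genes, and Nppb was 93rd of 13533 by size. The exact two-sided permutation test over the 8 libraries gave p = 0.029, the smallest p that 4 against 4 allows.

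Cardiomyocyte markers were looked at beside Nppb. Their summed level over 10 genes was 10.5 to 14.1 CPM in GFP and 8.60 to 10.4 CPM in OEIRF7, nearly all of it from Tnnt2, which encodes cardiac troponin T and was lower in OEIRF7 (11.3 against 7.78 CPM, log2 fold change -0.54, adjusted p = 0.00057). Of the other 9, Ttn was the only one tested (0.547 against 0.857 CPM, adjusted p = 0.079). Ryr2, the calcium release channel, had 41 counts in all, at 0.0867 against 0.299 CPM with groups that did not overlap (exact permutation p = 0.029). Mb had 4 counts in all, at 0.0390 against 0 CPM, also without overlap (exact permutation p = 0.029). These are single reads in GFP beside values of 0 in OEIRF7, too few to give a direction. Groups did not overlap for 53.8% of all tested genes. Actn2, sarcomeric actinin, had 11 (0.0287 against 0.0756 CPM), and Actc1, the cardiac actin, had 5 (0.0203 against 0.0259 CPM). Tnni3 had 37 (0.175 against 0.180 CPM) and Pln had 7 (0.0396 against 0.0300 CPM). Myh7 stood at 0.0387 against 0 CPM and Myh6 at 0.00953 against 0 CPM. The part of cardiomyocyte RNA in the Nppb difference was not tested. Nppa, the atrial peptide gene often followed with Nppb, had 8 counts over all libraries (0.0395 against 0.0393 CPM), and Nppc, the C-type peptide gene, had 3. Nppb was thus the only one of these 3 peptide genes with enough counts for a test.

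Npr3 (chr15:11839896-11907287, minus strand), the receptor that binds natriuretic peptides and removes them without making cyclic GMP, was lower. Its counts were 163, 215, 118 and 158 in GFP replicates 1 to 4 and 49, 72, 43 and 60 in OEIRF7 replicates 1 to 4. The groups did not overlap, with 4.78 CPM in the lowest GFP library and 2.48 CPM in the highest OEIRF7 library, and the GFP libraries were the more spread. The mean fell from 6.38 ± 1.61 to 2.13 ± 0.393 CPM (SD, n = 4; log2 fold change -1.58, SE 0.19, 95% CI -1.98 to -1.18, adjusted p = 4.4e-06, exact permutation p = 0.029). A difference of that size or more was seen in 3.19% of tested genes. Npr3 shares exon bases with Gm5144, which is transcribed from the other strand. The strand setting of the counting is not given in the sources used here, so without it reads of such a pair cannot be told apart, here and for the antisense partners named below. Epicardial markers summed to 151 to 159 CPM in GFP and 105 to 119 CPM in OEIRF7, lower in the same libraries although 2 of the 6 were called higher and 2 lower, and their part in the Npr3 difference was not tested.

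The signalling receptors of the family were read from a list of natriuretic receptors. Npr2, the guanylyl cyclase receptor for C-type peptide, was the most abundant of the 3 receptors, at 32.1 FPKM (fragments scaled by exon length and library size) in GFP, against 1.31 for Npr3 and 0.320 for Npr1. Npr2 was lower in OEIRF7 (108 ± 2.13 against 74.0 ± 4.19 CPM, SD, n = 4, log2 fold change -0.55, adjusted p = 4.4e-08). Npr1, the cyclase receptor for the atrial and B-type peptides, stood at 1.31 ± 0.190 and 1.48 ± 0.262 CPM (log2 fold change 0.17, 95% CI -0.29 to 0.63, adjusted p = 0.51). By FPKM, the ranges of Nppb and the clearance receptor Npr3 overlapped in GFP (0.815 ± 0.250 against 1.31 ± 0.294), although Npr3 was above Nppb within each GFP library. Nppb was above Npr3 in all 4 OEIRF7 libraries (5.55 ± 0.863 against 0.465 ± 0.0507).

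The enzymes of natriuretic precursor processing were read next. Pcsk6, a proprotein convertase known to activate corin, was lower (227 ± 10.9 against 106 ± 2.74 CPM, log2 fold change -1.10, adjusted p = 2.3e-11). Furin, a convertase that can cut the B-type precursor, was slightly higher with overlapping groups (241 ± 15.03 against 267 ± 15.97 CPM, log2 fold change 0.15, adjusted p = 0.02). Corin, which cuts the atrial precursor, had 46 counts in all and was not tested.

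Edn1 (chr13:42301476-42307990, plus strand), which encodes the endothelin-1 precursor, was lower in OEIRF7. It had 827, 814, 713 and 866 counts in GFP replicates 1 to 4 and 583, 656, 471 and 581 counts in OEIRF7 replicates 1 to 4. All 4 OEIRF7 libraries were below all GFP libraries, at 18.5 to 23.6 CPM against 28.9 to 33.0 CPM. The mean fell from 31.3 ± 1.89 to 21.8 ± 2.26 CPM (SD, n = 4; log2 fold change -0.52, SE 0.073, 95% CI -0.68 to -0.37, adjusted p = 2.2e-05, exact permutation p = 0.029). A difference at least as large was seen in 23.6% of tested genes. Edn1 shares exon bases with Gm47118 on the opposite strand. It was the only endothelin ligand gene with a usable level, since Edn2 had 0 counts in the 8 libraries, where 3 counts would be 0.103 to 0.122 CPM in a single library, and Edn3 had 3.

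Ece1, the converting enzyme that makes active endothelin-1, was the most abundant of the 10 genes and showed no called difference. Its counts were 7393, 6580, 6507 and 7148 in GFP and 7167, 7899, 6955 and 6923 in OEIRF7, replicates 1 to 4. On the CPM scale the libraries were close together (269 ± 6.30 against 276 ± 4.01 CPM, SD, n = 4), and the interval of the log2 fold change, -0.03 to 0.10, holds at most a small change (estimate 0.04, adjusted p = 0.31). The deposited FPKM of the same gene was far more spread: 124, 104, 122 and 75.7 in GFP and 75.5, 139, 145 and 73.1 in OEIRF7. The ratio of FPKM to CPM ran from 0.260 to 0.530, and its coefficient of variation over the 8 libraries, 28.1%, was larger than that of 99.5% of 11343 genes, whose median was 1.68%. The low ratios were in GFP replicate 4 and OEIRF7 replicates 1 and 4. Ece2, a related enzyme, stood at 3.09 and 3.05 CPM (adjusted p = 0.96), and Mme, neprilysin, which degrades endothelin and natriuretic peptides, was lower (5.54 ± 0.845 against 3.47 ± 0.313 CPM, log2 fold change -0.68, adjusted p = 0.00049).

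**Figure D2:**
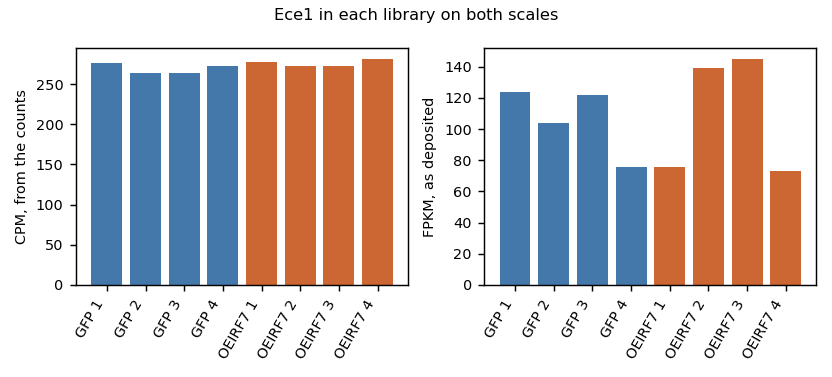
Ece1 in each of the 8 libraries (GFP blue, OEIRF7 orange) as CPM from the counts (left) and as deposited FPKM (right), bars from 0. CPM stays between 264 and 281 in all libraries while FPKM ranges from 73.1 to 145 within the OEIRF7 group.

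Ednrb (chr14:103814625-103844402, minus strand), the gene of the ETB receptor, was higher. Its counts were 148, 173, 149 and 160 in GFP replicates 1 to 4 and 202, 236, 204 and 193 in OEIRF7 replicates 1 to 4. The OEIRF7 libraries lay close together at 7.83 to 8.13 CPM, above the highest GFP library at 6.93 CPM. The mean rose from 6.15 ± 0.582 to 7.95 ± 0.150 CPM (SD, n = 4; log2 fold change 0.37, SE 0.092, 95% CI 0.18 to 0.57, adjusted p = 0.0028, exact permutation p = 0.029), a size reached by 35.7% of tested genes. Endothelial cells also use Ednrb, and among 8 endothelial markers Kdr (6.50 against 11.3 CPM), Vwf (9.79 against 13.7 CPM) and Emcn (31.2 against 38.2 CPM) were called higher, Cdh5 (100.4 against 92.9 CPM) was called lower, and the other 4 were not called. The summed endothelial level overlapped between groups, and its part in the Ednrb difference was not tested.

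Ednra, the gene of the ETA receptor, was low in both groups, with 15, 19, 10 and 17 counts in GFP and 11, 9, 9 and 16 in OEIRF7. The groups overlapped (0.594 ± 0.150 against 0.435 ± 0.151 CPM, SD, n = 4), and with so few reads the interval of the log2 fold change ran from -1.18 to 0.26 (adjusted p = 0.25). No difference was detected, and the interval holds a fall to 0.443-fold as well as no change. Ednra shares exon bases with 4933431K23Rik on the opposite strand. By FPKM, Ednrb exceeded Ednra in every library, by 8.72 to 13.5 times in GFP and 11.5 to 23.2 times in OEIRF7, ranges that overlap and were not tested.

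The angiotensin genes showed no called difference. Agt, the gene of the precursor angiotensinogen, had 18, 29, 14 and 25 counts in GFP and 12, 25, 17 and 13 in OEIRF7, which overlap (log2 fold change -0.40, 95% CI -1.06 to 0.26, adjusted p = 0.28). Ace, the angiotensin-converting enzyme, was well measured, with 433, 435, 340 and 433 counts in GFP and 387, 480, 326 and 322 in OEIRF7. OEIRF7 replicate 2 was the highest of its group, within the GFP range, and the groups overlapped (15.97 ± 1.56 against 14.4 ± 1.76 CPM, SD, n = 4, log2 fold change -0.15, 95% CI -0.35 to 0.05, adjusted p = 0.18). Without OEIRF7 replicate 2, Ace was called lower (log2 fold change -0.23, adjusted p = 0.048 in edgeR's quasi-likelihood test). Ace shares exon bases with Gm11651 on the opposite strand.

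The angiotensin receptors were at the floor of these libraries. Agtr1a, the AT1 receptor gene of most mouse tissues, had 11, 13, 3 and 6 counts in GFP and 6, 8, 8 and 6 in OEIRF7, 61 in all, and did not pass the filter. The groups overlapped, and in a fit that kept every gene with at least 1 count its adjusted p was 0.71. Agtr2, the AT2 receptor gene, had 1 count in GFP replicate 4 and 1 in OEIRF7 replicate 2 and none elsewhere. Agtr1b, the other AT1 gene of the mouse, had 6 counts over all libraries, Mas1, the receptor of angiotensin 1-7, had 15, and Ren1, renin, had 2.

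**Figure D3:**
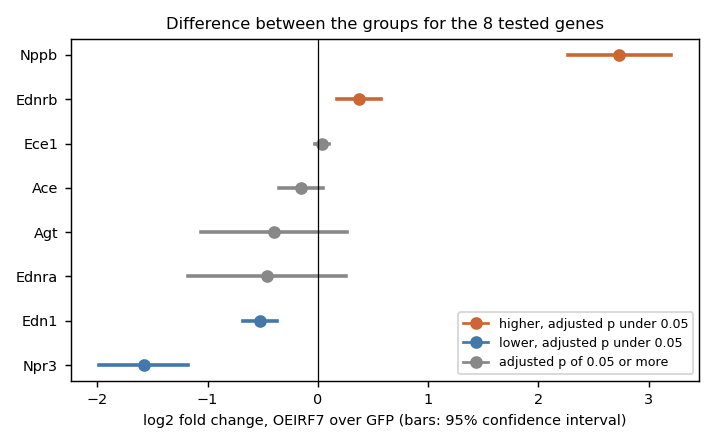
Log2 fold change of OEIRF7 over GFP (horizontal axis) for the 8 tested genes, with bars for the 95% confidence interval from edgeR and colour for the call. The intervals of Nppb, Ednrb, Edn1 and Npr3 do not include 0, and those of Ednra and Agt are the widest.

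Levels between genes were compared on the FPKM scale, which is per length. In GFP the order was Ece1 (106 ± 22.3), Edn1 (14.5 ± 0.865), Ace (3.64 ± 0.363), Ednrb (1.57 ± 0.213), Npr3 (1.31 ± 0.294), Nppb (0.815 ± 0.250), Agt (0.440 ± 0.142), Ednra (0.163 ± 0.0427), Agtr1a (0.140 ± 0.0804) and Agtr2 (0.0025), each as mean ± SD FPKM over 4 libraries. The neighbours Ednrb and Npr3, Npr3 and Nppb, Nppb and Agt, and Ednra and Agtr1a had overlapping ranges. Within each GFP library, however, Ednrb was above Npr3, Npr3 above Nppb and Nppb above Agt, and only Ednra and Agtr1a changed order between libraries. Ece1, Edn1 and Ace were each apart from the next gene in every library, and no test was made between genes. In OEIRF7, Nppb was the third gene at 5.55 FPKM, above the 3.99 FPKM of the highest Ace library in all 4 libraries, and Npr3 fell to 0.465 FPKM, where its range of 0.390 to 0.500 overlapped that of Agt.

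**Figure D4:**
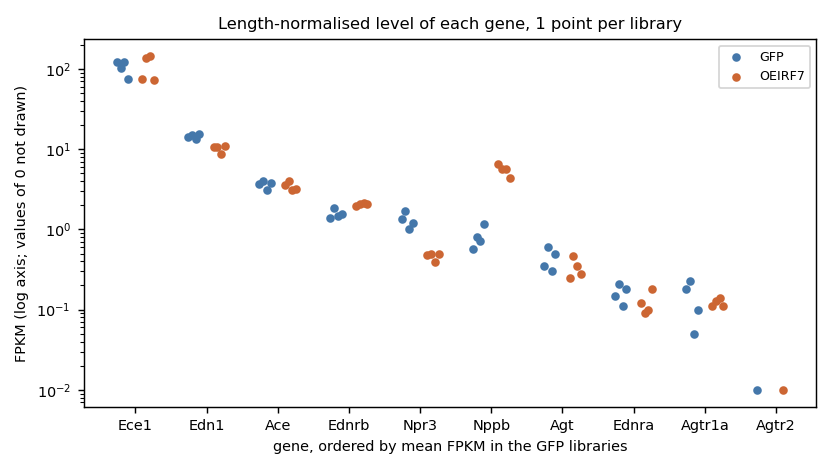
FPKM as deposited (vertical axis, log scale, values of 0 not drawn) of the 10 genes ordered by their GFP mean, with 1 point per library for GFP (blue) and OEIRF7 (orange). Levels span from about 100 FPKM for Ece1 to single reads for Agtr2, and Nppb is the gene that changes place most.

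The signalling partners of the 10 genes were read from lists of 84 further genes, of which 64 were tested. Of these, 24 were higher and 24 lower (median log2 fold change 0.11), against 29.0% and 29.9% of all tested genes, with 9 of the calls over 1 in size against 8.56%. Among 9 tested genes of the angiotensinogen and angiotensin enzyme list, 5 were higher and 0 lower, and none of the 5 was Agt or Ace. Anpep, aminopeptidase N, which trims angiotensin III, was the largest (41.4 ± 1.90 against 90.4 ± 5.56 CPM, log2 fold change 1.13, adjusted p = 1.5e-10). Prcp (log2 fold change 0.36), Thop1 (0.36) and Prep (0.33), peptidases that can cut angiotensins, and Lnpep (0.23), the angiotensin IV binding aminopeptidase, made up the rest, with adjusted p from 1.2e-06 to 0.0009. Of the 2 tested angiotensin receptor partners, Atp6ap2, the (pro)renin receptor, was higher (log2 fold change 0.17, adjusted p = 0.00026) and Agtrap, which binds the AT1 receptor, was not called (0.09, adjusted p = 0.064).

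Cyclic GMP is made by the natriuretic receptors and, in parallel, by the nitric oxide receptor. Of 11 tested genes of cyclic GMP signalling and breakdown, 7 were lower and 3 higher, against 29.9% and 29.0% of all tested genes. Gucy1a1, a subunit of the nitric oxide receptor, had the largest difference (16.4 ± 3.82 against 5.02 ± 0.580 CPM, log2 fold change -1.70, adjusted p = 1.6e-07). Prkg1, the cyclic GMP-dependent kinase I, was lower (75.3 ± 3.45 against 42.0 ± 2.10 CPM, log2 fold change -0.84, adjusted p = 1.4e-09), while Prkg2, kinase II, was higher from a low level (3.74 against 6.08 CPM, log2 fold change 0.70, adjusted p = 0.0012). Pde2a, a phosphodiesterase that cyclic GMP activates, was also lower (log2 fold change -0.99, adjusted p = 8.5e-05), so both makers and breakers of cyclic GMP were among the lower genes.

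Downstream of the endothelin and angiotensin receptors, 10 of 14 tested genes of Gq and G12 coupling were lower and 3 higher, beside the same 29.9% and 29.0% of all tested genes. Of 6 tested mural cell markers 4 were also lower, among them Notch3 (log2 fold change -1.61) and Myh11 (-0.98). The 1 higher marker was Cspg4 (22.4 against 63.3 CPM), whose groups did not overlap, as for 53.8% of all tested genes. The summed level of these markers was 1460 to 1578 CPM in GFP and 1316 to 1469 CPM in OEIRF7. Most of that sum came from Pdgfrb (1413 against 1268 CPM), which was called lower. The part of mural cell RNA in the differences of the cyclic GMP and the Gq and G12 lists was not tested. Plcb4, a phospholipase C that Gq switches on, was lower (58.2 ± 3.12 against 24.2 ± 1.64 CPM, log2 fold change -1.26, adjusted p = 1.7e-10). Gna12, the G12 alpha subunit, was lower (132 ± 3.90 against 58.8 ± 3.02 CPM, log2 fold change -1.17, adjusted p = 2.3e-11). Itpr2, an inositol trisphosphate receptor of the calcium store (log2 fold change -1.03), and Plcb1 (-0.75) were lower too. Of 15 tested genes that switch these receptors off or carry calcineurin signals, 7 were higher and 3 lower, beside 29.0% and 29.9% of all tested genes. Rgs16, which speeds the shut-off of Gq and Gi, was the largest (8.34 ± 0.346 against 29.7 ± 6.92 CPM, log2 fold change 1.83, adjusted p = 2.2e-08), followed by Rgs5 (0.73), while Nfatc3 (-0.56), a target of calcineurin, and Grk6 (-0.41), a receptor kinase, were lower.

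**Figure D5:**
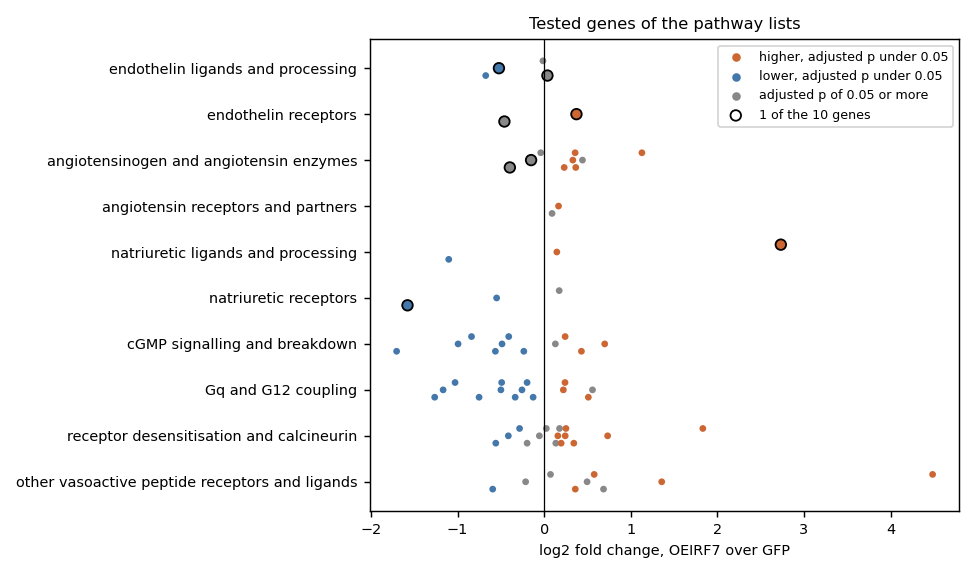
Log2 fold change of OEIRF7 over GFP (horizontal axis) of each tested gene in 10 lists of the endothelin, angiotensin and natriuretic pathways, coloured by call, with a ring around the 8 tested ones of the 10 genes described. The Gq and G12 list holds 10 lower and 3 higher genes, and Nppb and Npr3 sit at the ends of their own lists.

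The genes whose profile over the 8 libraries was most like that of Nppb, by the root mean square difference of log2 CPM after centring on the GFP mean among 10320 genes, were Abcb1a (0.27), Itga2 (0.27) and Plaur (0.28). Their log2 fold changes were 2.73, 2.75 and 2.38. For Npr3 the closest were Adamtsl2 (0.13), Pid1 (0.16) and Gucy1a1 (0.17), with log2 fold changes of -1.46, -1.50 and -1.70. Because profiles are centred on the GFP mean, the ranking picks genes with a fold change near that of Nppb or Npr3. The similar fold changes follow from this rule, and shared regulation was not tested.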

How the data were processed

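RNA of primary mouse cardiac fibroblasts was sequenced by the authors, and the libraries were trimmed with Trimmomatic, aligned with HISAT2 to GRCm38 and counted per gene with HTSeq-count. The labels and the study's text name different library kits, and tool versions and the strand setting are not given in the sources used here. The deposited table holds raw counts and, beside them, FPKM that the authors computed with Cufflinks. It also holds group means, log2 ratios, p-values and adjusted p-values of the authors' own comparison, which were not used.

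For the main test, edgeR 4.0.16 in R 4.3.3 was run on the counts with filterByExpr by group (minimum count 10), TMM factors (0.989 to 1.01), glmQLFit and glmQLFTest without covariates, and Benjamini-Hochberg adjustment over 13533 genes. CPM are counts scaled to the TMM-adjusted library size. Each of the 10 genes also had an exact permutation test, two-sided, on log2 CPM with a prior count of 2. FPKM served to compare levels between genes. In the table GFP stood in place of "nc" in 121 symbols, which were restored by identifier. Overlapping genes were taken from GENCODE M21.

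Alternatives were DESeq2 1.42.0, other scaling factors, other filters, a block for replicate number, omission of each library in turn, and limma 3.58.1 on log2(FPKM + 1) and log2(FPKM + 0.1). The 10 genes, the lists and the motifs were chosen with earlier results of these data known. Named beside the 10 genes were up to 4 called genes per list with the largest change and at least 1 CPM in a group, the markers that show a cell type, and the 3 genes of at least 5 CPM most like each called gene with a log2 fold change over 1 in size. Other genes named, among them Npr1, Ece2, Lnpep, Agtrap and the genes with few counts, were added after their values were seen. Replicates of a group differed by more than sampling noise, with chi-square per degree of freedom of 2.91 to 9.94.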

Additional observations from a re-analysis of the deposited data

Results flagged for a closer look

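Agtr2 stood out in both groups by a single read. GFP replicate 4 held 0.0381 CPM and OEIRF7 replicate 2 held 0.0345 CPM, 1 count each, against 0 in the other 3 libraries of each group. Of 20 groups of 4 libraries examined, these 2 had a sample far from the others. A single read beside values of 0 is always set apart by this rule. The rate of about 1 in 20 by chance does not hold for such tied values, so the flags say nothing more about Agtr2.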

How the results depend on the processing

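Of the 10 genes, 2 were called higher under all 18 alternatives, and 2 were called lower under 17 of them. The count of lower calls was 2 to 3 when 1 library was left out, with 3 only without OEIRF7 replicate 2, where Ace (-0.23, adjusted p = 0.048) joined. In the wider lists 23 to 26 genes were higher and 24 to 25 lower, and 24 to 25 of each with 1 library left out. Over the 18 alternatives the log2 fold change ran from -0.56 to -0.45 for Edn1, from 0.26 to 0.43 for Ednrb, from 1.85 to 2.95 for Nppb and from -1.69 to -0.65 for Npr3, with the smallest sizes of Nppb and Npr3 under limma on log2(FPKM + 1), where a pseudocount of 1 understates low genes. Ece1, not called under any of them, changed sign to -0.023 under limma on log2(FPKM + 1) with and without the filter and to -0.024 on log2(FPKM + 0.1). Without any scaling beyond library size, 4346 of all genes were higher and 3728 lower, against 3924 and 4045. With CPM per kilobase of exon union in place of FPKM the levels of Ece1 (50.7 in GFP, 52.1 in OEIRF7), Ednra (0.108, 0.0794), Ace (3.02, 2.71) and Npr3 (0.679, 0.226), and those of Ednrb (1.86) and Agtr1a (0.0956) in OEIRF7, were lower by more than 1 SD, and Npr3 and Nppb, and Ednra and Agtr1a, changed places in the GFP order, as did Npr3 and Agt in the OEIRF7 order. Replicate numbers are shared by the groups, and the deviations of same-numbered libraries correlated by 0.0792 to 0.138, over 0.1 in 2 of 4 pairs. All 8 libraries correlated best with their own number, and no differently numbered pair was above 0.0476. The main test did not use the number as a pairing, so a fit that does is given here. With the replicate number as a block 2 of the 10 genes were higher and 2 lower, 25 and 25 of the wider lists, and 4057 and 4154 of all genes. Depth limits Agt, Ednra, Agtr1a and Agtr2, at under 30 counts in every library.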

Other observations

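Other vasoactive peptide genes were present in these bulk libraries, and the cells that hold their RNA were not told apart. Of 9 tested genes of that list, 4 were higher and 1 lower, against 29.0% and 29.9% of all tested genes. Bdkrb2, the bradykinin B2 receptor gene, went from 0.294 ± 0.110 to 6.64 ± 1.03 CPM (SD, n = 4; log2 fold change 4.49, SE 0.22, adjusted p = 4.6e-10 in edgeR's quasi-likelihood test), a larger fold change than that of Nppb. F2rl1, the protease-activated receptor 2 gene, was higher (8.60 ± 1.05 against 22.1 ± 2.86 CPM, log2 fold change 1.36, adjusted p = 3.8e-08). Calcrl, the shared receptor for adrenomedullin and CGRP, was higher (10.9 ± 1.16 against 16.2 ± 1.51 CPM, log2 fold change 0.58, adjusted p = 5.8e-05), whereas its ligand gene Adm was lower (190 ± 7.45 against 126 ± 3.98 CPM, log2 fold change -0.59, adjusted p = 6.3e-09). For each of these 4 genes the groups did not overlap, as for 53.8% of all tested genes.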
